A study of Mus musculus with 2 samples.

Results

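Among sorted nuclei of the mouse paraventricular hypothalamus (PVH), 136 of 4904 were chosen by their UMIs of Sema3d, Drd3 and Frem1. A UMI is a molecular identifier that marks 1 captured RNA molecule. A chosen nucleus held at least 2 UMIs of these 3 genes in sum, at least 1 UMI of Sim1, and no more than 1 UMI of Gad1, Gad2 and Slc32a1 in sum. It also held fewer than 4 UMIs of Sst and fewer than 10 each of Oxt and Avp. The chosen nuclei are called members below, and they made up 2.77% of the nuclei with exactly 1 hashtag. They are compared mostly with the 2395 nuclei that kept the same limits on Sim1, the GABA genes and the peptide genes but held 0 or 1 UMI of the 3 selecting genes, called the reference. In places they are set against all 4768 other nuclei with 1 hashtag.

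The nuclei came from 17 mice aged 4 weeks. All carried Sim1-Cre, which acts in cells with an active Sim1 promoter, and Sun1-GFP, which tags the nuclear envelope after Cre has acted, so that GFP-positive nuclei could be sorted. Of the mice, 4 were Otp fl/+, 6 were Otp Q153R/+, and 7 had no alteration of Otp. All mice were pooled into 1 droplet library, in which hashtags named KD, Q153R and Ctrl mark the pools. No label explains KD, and it is paired with Otp fl/+ only because the other names are taken, so the text speaks of nuclei labelled KD. With 1 pool per genotype a difference between pools cannot be set against the spread between animals, and no p-value is given. The 95% intervals in parentheses cover counting error alone, since UMIs of 1 nucleus are not independent and nuclei are not replicates. A smaller number of cells and less RNA per cell cannot be told apart in summed counts.

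Sema3d encodes a secreted class 3 semaphorin, a guidance ligand that acts on growing axons and migrating cells through neuropilin and plexin receptors. Drd3 encodes a dopamine receptor of the D2-like class, which couples to inhibitory G proteins. Frem1 encodes an extracellular matrix protein that joins Fras1 and Frem2 in a complex at basement membranes, and Nox4 encodes an NADPH oxidase that makes hydrogen peroxide. Sim1 and Otp encode transcription factors needed for the development of PVH neurons, which control pituitary hormones and feeding and mostly use glutamate as their transmitter.

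Sequences at the 3 selecting genes and Nox4 are shown because these 4 genes mark the nuclei described. Each line gives the 250 bases before a RefSeq start in GRCm38.p6, 5′ to 3′ on the gene's strand, with CG dinucleotides in capitals. The windows lie at chr5:12382916-12383165 on the plus strand for Sema3d, chr16:43761971-43762220 on the plus strand for Drd3, chr4:83052167-83052416 on the minus strand for Frem1 and chr7:87246399-87246648 on the plus strand for Nox4. By the GENCODE bounds of the genes, the Sema3d window alone lies wholly before the gene. The RefSeq start used lies 8.20 kb inside the annotated Drd3 gene and 553 bases inside the Nox4 gene, so both of those windows are within the gene, as are 173 of the 250 bases at Frem1.
Sema3d: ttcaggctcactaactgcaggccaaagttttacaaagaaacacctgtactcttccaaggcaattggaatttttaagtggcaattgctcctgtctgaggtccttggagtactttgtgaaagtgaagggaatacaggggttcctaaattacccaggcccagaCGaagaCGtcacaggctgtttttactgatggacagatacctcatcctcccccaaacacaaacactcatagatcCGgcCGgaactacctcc
Drd3: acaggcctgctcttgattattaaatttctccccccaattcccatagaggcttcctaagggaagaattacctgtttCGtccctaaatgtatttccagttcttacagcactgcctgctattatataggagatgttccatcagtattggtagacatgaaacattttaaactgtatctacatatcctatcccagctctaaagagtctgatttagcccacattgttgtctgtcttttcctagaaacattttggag
Frem1: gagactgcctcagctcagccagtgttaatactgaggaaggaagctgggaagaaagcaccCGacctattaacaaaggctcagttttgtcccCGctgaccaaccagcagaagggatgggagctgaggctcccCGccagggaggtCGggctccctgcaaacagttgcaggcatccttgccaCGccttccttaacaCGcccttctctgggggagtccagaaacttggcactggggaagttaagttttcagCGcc
Nox4: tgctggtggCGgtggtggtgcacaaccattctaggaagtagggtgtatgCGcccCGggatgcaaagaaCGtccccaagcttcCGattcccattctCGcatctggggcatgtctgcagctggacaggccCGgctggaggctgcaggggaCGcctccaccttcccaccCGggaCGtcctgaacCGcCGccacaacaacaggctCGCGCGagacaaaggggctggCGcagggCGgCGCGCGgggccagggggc
The Nox4 window held 20 CG dinucleotides at a GC content of 67.2%, the Frem1 window 7 at 56.8%, the Sema3d window 4 at 46.8% and the Drd3 window 1 at 39.2%. Over 32851 such windows the median was 6 CG dinucleotides, with a 10th percentile of 1 and a 90th percentile of 25. None of the 4 windows held TAATTA, a core bound by many homeodomain proteins, or ACGTG, a core bound by bHLH-PAS dimers, when both strands were searched. Of all windows 4.84% held TAATTA and 16.6% held ACGTG, and the motifs can overlap in an end letter only.

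Members held 936448 UMIs in all, with a median of 6472.5 UMIs and 2727.5 genes per nucleus, against 5627 UMIs and 2466 genes in the reference. The median member held 7706 UMIs in KD, 5908 in Q153R and 7147 in Ctrl, and the median reference nucleus 6583.5, 4952 and 5747.5. The whole table has 6173 barcodes and 42833533 gene UMIs from 1 gene-expression library, so no cell barcodes are shared between gene-expression libraries. The hashtag library shares its barcodes with it, and the pool labels rest on that. Of 6157 barcodes with at least 500 genes, 1124 (18.3%) carried more than 1 hashtag and were left out. Among these, 58 (5.16%) met the rest of the rule, against 2.77% of nuclei with 1 hashtag. By nearest nuclei, 16 of the 136 members and 412 of the 4904 nuclei with 1 hashtag lay where barcodes with several hashtags were more frequent than average. Doublets within a pool were not removed, and their part in the members was not tested. Of 225 nuclei with 1 hashtag and at least 2 UMIs of the 3 genes, 70 lacked a Sim1 UMI, 18 were over the GABA limit, 13 over the Sst limit, 2 over the Oxt limit and 2 over the Avp limit, some of them on several counts.

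The selecting genes were unevenly spread among members. Sema3d had 234 UMIs in 89 members (65.4%), Frem1 139 UMIs in 69 members (50.7%), and Drd3 33 UMIs in 16 members (11.8%). A name built on Drd3 thus covers few of these nuclei as far as UMIs show. Sema3d alone was found in 58 members, Frem1 alone in 37 and Drd3 alone in 5, together 100 members with a single selecting gene. The other 36 held UMIs of 2 or 3 of the genes. Sema3d and Frem1 were found together in 27 members, of which 2 held Drd3 as well and so all 3 genes. Sema3d and Drd3 without Frem1 were found in 4 members, and Frem1 and Drd3 without Sema3d in 5. The median depth was 6065 UMIs in members with 2 or 3 genes and 6670 UMIs in those with 1.

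**Figure D1:**
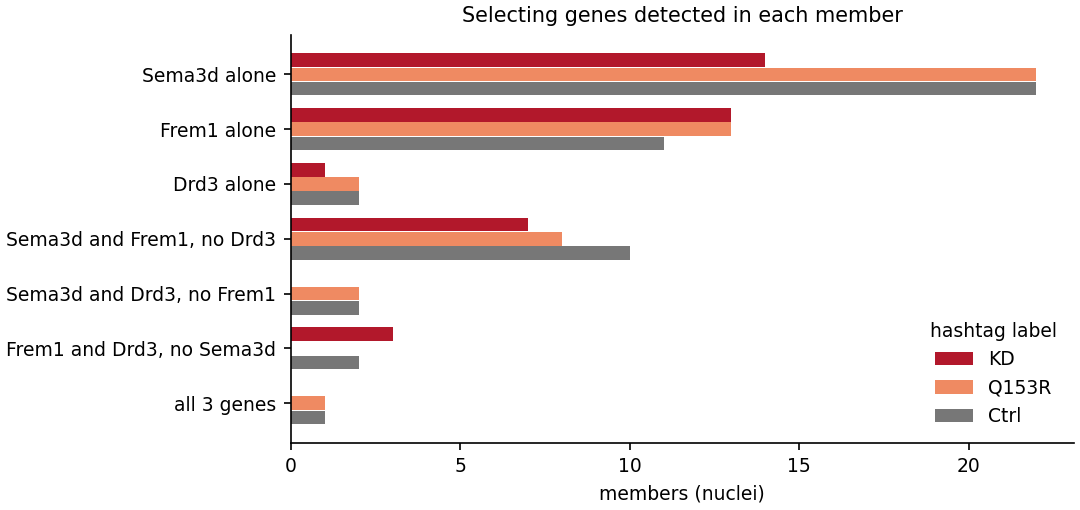
Number of members by the selecting genes of which they held UMIs, for nuclei labelled KD (38), Q153R (48) and Ctrl (50). Sema3d alone and Frem1 alone are frequent in each pool, with 14 and 13 members in KD, 22 and 13 in Q153R, and 22 and 11 in Ctrl.

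The levels of the selecting genes follow from the rule and are given as a description. Sema3d had 193 CPM in KD members, 311 in Q153R members and 246 in Ctrl members, where CPM is UMIs per 1000000 gene UMIs of the group. In reference nuclei of those labels, which can hold at most 1 such UMI, it had 7.71, 8.79 and 7.62 CPM. Frem1 had 185 CPM in KD members, 152 in Q153R members and 118 in Ctrl members. Sema3d was lowest in KD members and highest in Q153R members, while Frem1 was highest in KD members and lowest in Ctrl members. The ratio of KD over Ctrl was 0.782 (0.548 to 1.11) for Sema3d and 1.57 (1.03 to 2.41) for Frem1, and that of Q153R over Ctrl 1.26 (0.933 to 1.71) and 1.29 (0.828 to 2.01).

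Drd3 had 21.4 CPM in KD members, 60.2 in Q153R members and 26.8 in Ctrl members, from 6, 17 and 10 UMIs in 4, 5 and 7 nuclei. One Q153R nucleus held 47.1% of the Q153R UMIs. The ratios, 0.799 (0.239 to 2.43) for KD over Ctrl and 2.25 (0.972 to 5.49) for Q153R over Ctrl, have intervals that include 1. As with Sema3d and Frem1, they are drawn from values that the rule used and test no difference between pools.

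The limit of 2 UMIs lies within a continuous range. Just inside it, 73 members held exactly 2 UMIs of the 3 genes and had a median depth of 6193 UMIs, and just outside it 230 nuclei held exactly 1 and had a median depth of 6587.5. A further 63 members held 3 or more, and 2165 reference nuclei held 0. Nox4, which the rule does not use, stood at 31.2 CPM just inside and 31.2 CPM just outside.

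Nox4 was higher in members than in the reference. It had 24.97 CPM in KD members, 63.7 in Q153R members and 80.3 in Ctrl members, from 7, 18 and 30 UMIs, against 15.9, 19.2 and 13.0 CPM in reference nuclei of those labels. Members were higher in each pool, but in KD the intervals of members and reference overlap. Over the pools Nox4 had 55 UMIs in 23 members, 58.7 CPM (44.2 to 76.4), against 15.9 CPM (13.9 to 18.1) in the reference, a ratio of 3.69 (2.70 to 4.97). Within pools the ratio was 1.57 (0.611 to 3.41) in KD, 3.31 (1.88 to 5.53) in Q153R and 6.20 (3.89 to 9.66) in Ctrl. A single Ctrl member held 16 of the 55 UMIs, and without it the ratio over the pools was 2.64.

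Nox4 was more abundant in members with several selecting genes. Its ratio to the reference was 8.60 (5.82 to 12.4) in the 36 members with 2 or 3 of the genes and 1.92 (1.16 to 2.998) in the 100 members with 1. The Ctrl member with 16 Nox4 UMIs is 1 of the 36, and without it their ratio was 4.71 (2.74 to 7.62). After every nucleus was thinned to 2338 UMIs, with 3 members and 117 reference nuclei left out as shallower, a Nox4 UMI was found in 9.02% of 133 nuclei (4.75 to 15.2) among members and 2.85% of 2278 nuclei (2.21 to 3.62) in the reference. Unthinned, the shares were 16.9% and 6.35%. Nuclei with at least 50 Avp UMIs, vasopressin neurons taken as a measure of free RNA, gave 0.794% of 126 nuclei (0.0201 to 4.34) after thinning, and their median depth before it was 5797 UMIs.

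**Figure D2:**
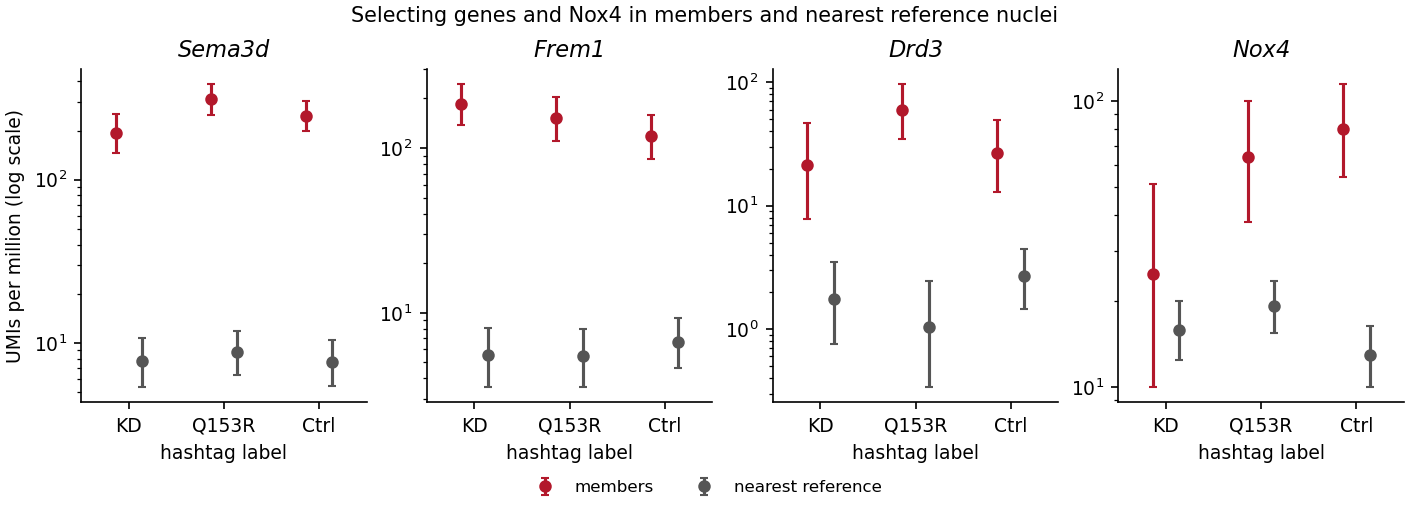
Summed UMIs per 1000000, on a log scale, with exact Poisson 95% intervals, for the 3 selecting genes and Nox4 in members and reference nuclei of each hashtag label. The selecting genes are apart by construction, and Nox4 is apart in Q153R (63.7 in members, 19.2 in the reference) and Ctrl (80.3 and 13.0) and overlaps in KD (24.97 and 15.9).

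The pools held members at like shares. Members were 38 of 1347 nuclei labelled KD (2.82%, 2.004 to 3.85), 48 of 1591 labelled Q153R (3.02%, 2.23 to 3.98) and 50 of 1966 labelled Ctrl (2.54%, 1.89 to 3.34), by exact Clopper-Pearson intervals. The odds ratio was 1.11 (0.705 to 1.74) for KD over Ctrl and 1.19 (0.780 to 1.82) for Q153R over Ctrl, so no difference between pools was detectable at these numbers. Among nuclei within the Sim1, GABA and peptide limits the odds ratios were 0.982 (0.618 to 1.55) and 0.920 (0.599 to 1.41). At 2338 UMIs per nucleus the rule kept 0.565% of nuclei in KD, 0.777% in Q153R and 0.626% in Ctrl. The mix of sexes moved with the pools: nuclei with at least 3 Xist UMIs and no UMI of Y-linked genes came to 73.7% of members in KD, 47.9% in Q153R and 70% in Ctrl, and its part in the differences between pools was not tested.

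Members lay near each other when nuclei were arranged by their other genes, without the selecting genes, the limited genes and Nox4. Of the 15 nearest nuclei of a member, 18.7% were members on average, against 3.70% for a reference nucleus. The share was 27.8% for members with 2 or 3 selecting genes and 15.4% for those with 1. At the limit it was 13.2% for members with exactly 2 UMIs and 10.3% for reference nuclei with exactly 1. Of the 136 members 104 had another member among these neighbours, and 745 of the 2395 reference nuclei had one.

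Members fell into 19 of 25 clusters built from the same arrangement. Cluster 15, with 158 nuclei, held 43 of them (31.6%), among these 20 of the 36 with several selecting genes. Cluster 5 held 25 members among 237 nuclei and cluster 4 held 15 among 250. Members thus do not form a single cluster, and 115 of the 158 nuclei of cluster 15 were not members. The pools were spread unevenly over the clusters. Cluster 15 held 10 of 38 members in KD, 19 of 48 in Q153R and 14 of 50 in Ctrl, and cluster 14 held 7, 0 and 3. Ratios between pools of members thus compare unlike mixes of clusters, and the part of this in them was not tested.

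The leading cluster was rich in the marker genes also outside its members. Nox4 stood at 134 (92.6 to 187) CPM in members of cluster 15 and 30.8 (19.1 to 47.1) in members elsewhere. The member with 16 Nox4 UMIs lies in cluster 15, whose members stood at 73.2 (43.4 to 116) CPM without it. Nox4 stood at 48.8 (34.0 to 67.9) in the other nuclei of cluster 15 and 14.7 (12.8 to 16.9) in reference nuclei elsewhere. Drd3, a selecting gene, stood at 86.5 (54.2 to 131) CPM in members of the cluster and 16.1 (8.05 to 28.9) in members elsewhere, and at 30.7 (19.2 to 46.5) in its other nuclei. Over all nuclei of a cluster, Nox4 stood at 71.1 CPM in cluster 15 and 60.96 CPM in cluster 11, which held 4 members. Without that 1 nucleus cluster 15 stood at 55.1 (41.2 to 72.0) CPM, below cluster 11, so the order of the 2 clusters rests on it.

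**Figure D3:**
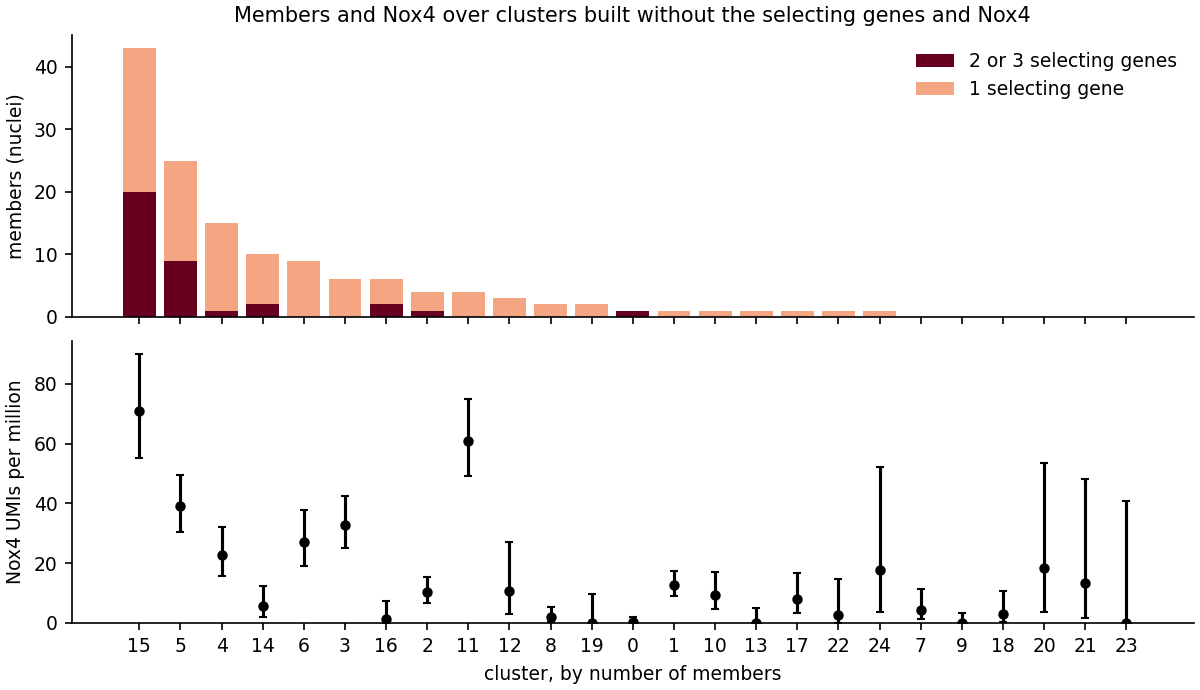
Members per cluster, split by the number of selecting genes, and Nox4 UMIs per 1000000 with exact Poisson 95% intervals over all nuclei of each cluster. Cluster 15 holds 43 members and cluster 5 holds 25, and the highest Nox4 values are 71.1 in cluster 15, or 55.1 without 1 nucleus, and 60.96 in cluster 11.

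Sema3d and Drd3 were also found in nuclei outside the rule. In 34 nuclei with at least 3 UMIs of Pdgfra, Cspg4, Olig1 and Olig2, genes of oligodendrocyte precursors, Sema3d stood at 428 CPM (325 to 553), with 0 Drd3 UMIs and 0 members. In cluster 19, with 81 nuclei of which 2 were members, Drd3 stood at 71.0 CPM. Some genes named as high in members below were also frequent in the oligodendrocyte precursors. At 2338 UMIs per nucleus Nfib was found in 63.0% of 27 such nuclei and 19.5% of 133 members. Ust was found in 51.9% and 18.8%, and Pdlim5 in 40.7% and 12.8%. Mgll, Gm20754 and 4930509J09Rik also had larger shares in the precursors, and the rest of the named high genes had smaller ones.

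Across 8485 genes with at least 200 UMIs over members and reference, the selecting and limited genes left out, 30 had a ratio of at least 2 (0.354%) and 175 a ratio of 0.5 or less (2.06%). These ratios are called past the fold below. The median log2 ratio was -0.02. The genes come from the nuclei that the rule chose, so the ratios describe the members and carry no test. The 15 genes with the highest lower bound of the ratio were Nox4, Pdlim5, Pla2g6, Ust, Adamtsl1, Gm49171, Mgll, Kcnq5, A830018L16Rik, Gm20754, 4930509J09Rik, Nfib, 6530403H02Rik, Lingo2 and Galr1. Of these, 13 were above 1 in each pool, all but Pla2g6 and 6530403H02Rik. At equal depth, 15 of 15 were found in a larger share of members than of reference nuclei. Both counts were made in the nuclei in which the genes were picked, so they add no support. The equal-depth shares were close for Pla2g6, at 3.01% (0.825 to 7.52) of members and 2.77% (2.13 to 3.52) of the reference. Intervals also overlapped for Mgll, Gm49171, 4930509J09Rik, 6530403H02Rik and Galr1.

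Adamtsl1, a secreted matrix protein related to the ADAMTS proteases, had 321 CPM in KD members, 244 in Q153R members and 281 in Ctrl members, against 114, 109 and 108 CPM in reference nuclei of those labels. Each pool of members lay above each pool of the reference, and the ratio was 2.56 (2.24 to 2.92), with 3.96 in members of cluster 15. Ust, a sulfotransferase acting on chondroitin and dermatan sulfate chains, had 128 CPM in KD members, 198 in Q153R members and 107 in Ctrl members, against 58.2, 49.4 and 45.2 CPM in reference nuclei of those labels. Its ratio was 2.79 (2.30 to 3.36), with 7.62 in the members of cluster 15 and 0.985 in the 93 members outside it. Lingo2, a leucine-rich repeat protein of the neuronal surface, had 5768 CPM in KD members, 5704 in Q153R members and 5807 in Ctrl members, against 3328, 3545 and 3065 CPM in reference nuclei of those labels, a ratio of 1.74 (1.70 to 1.79). That ratio is short of the fold. Lingo2 was found in 131 of 136 members and in 1835 of 2395 reference nuclei. At 2338 UMIs per nucleus it was found in 96.2% of members and 72.7% of the reference. Of 174 nuclei with at least 4 UMIs of Gad1, Gad2 and Slc32a1 and no Sim1 UMI, 82.8% held it at that depth.

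Kcnq5, a subunit of the M-type potassium channel that limits repetitive firing, had 1423 CPM in KD members, 1348 in Q153R members and 1124 in Ctrl members, against 634, 631 and 646 CPM in reference nuclei of those labels. Its pools did not overlap between the classes either, and the ratio was 2.01 (1.89 to 2.14). It was below 2 under several alternatives, at 1.81 without the largest cluster in the reference and 1.73 in members chosen by Sema3d and Drd3 alone. Galr1, a receptor of the peptide galanin, had 32.1 CPM in KD members, 28.3 in Q153R members and 56.2 in Ctrl members, against 12.1, 24.1 and 13.9 CPM in reference nuclei of those labels. Its ratio was 2.43 (1.68 to 3.43) over the pools, 1.66 without Ctrl and 0.943 in members of cluster 15. Mgll, the lipase that breaks down an endocannabinoid, stood at 40.6 CPM in members and 14.3 CPM in the reference, a ratio of 2.84 (1.96 to 4.03). Within pools its ratio was 2.349 (1.03 to 4.75) in KD, 1.48 (0.577 to 3.19) in Q153R and 4.68 (2.75 to 7.69) in Ctrl. It was 1.86 without Ctrl, 1.10 in members of cluster 15 and 5.08 in members with 2 or 3 selecting genes. Pdlim5, a scaffold that links kinases to the actin cytoskeleton, had 74.9 CPM in KD members, 106 in Q153R members and 50.9 in Ctrl members, against 21.6, 25.3 and 20.8 CPM in reference nuclei of those labels, and its ratio was 3.32 (2.53 to 4.31), with 6.81 inside cluster 15, 2.02 outside it and 2.15 in members chosen by Sema3d and Drd3 alone. Against all 4768 other nuclei the ratio was 1.88 (1.45 to 2.40) for Pdlim5, 2.14 (2.02 to 2.27) for Kcnq5 and 3.86 (2.86 to 5.12) for Nox4.

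Nfib, a transcription factor of the nuclear factor I family, had 125 CPM in KD members, 92.0 in Q153R members and 206 in Ctrl members, against 47.8, 55.6 and 97.9 CPM in reference nuclei of those labels, a ratio of 2.15 (1.79 to 2.57). It was 3.45 in members of cluster 15, 1.67 in those outside it and 1.66 against all other nuclei. The long noncoding RNA Gm49171 was at 3.13 (2.12 to 4.50), and the protein-coding gene A830018L16Rik at 2.05 (1.88 to 2.24), with 3.47 inside cluster 15 and 1.53 outside it. Gm20754 (2.08, 1.88 to 2.29) and 4930509J09Rik (2.29, 1.82 to 2.85) are long noncoding RNAs annotated at overlapping positions of chromosome 3 on opposite strands, and the strand setting of the counting is not given in the sources used here, so they are uncertain as separate genes. In members of cluster 15 they were at 0.831 and 0.726. Pla2g6, a phospholipase, was high through 1 nucleus. It had 36 UMIs in KD members, 4 in Q153R members and 3 in Ctrl members, and 1 KD nucleus held 79.1% of all of them. Its ratio was 3.41 (2.39 to 4.77) with that nucleus and 0.721 without it. The long noncoding RNA 6530403H02Rik had 32 UMIs in 6 members, 50% of them in 1 nucleus, and its ratio was 2.65 (1.76 to 3.87), 1.76 without KD and 0 in members of cluster 15.

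**Figure D4:**
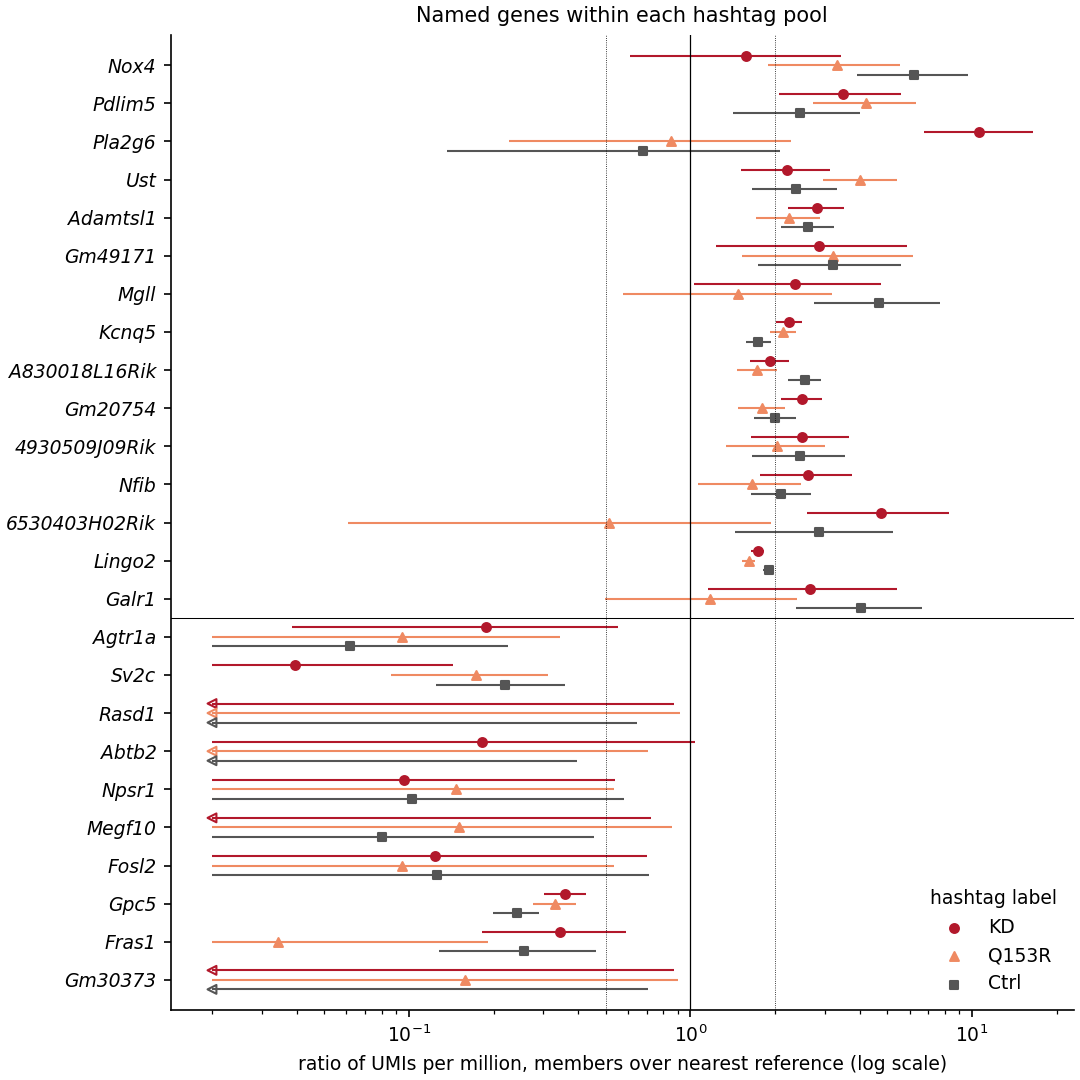
Ratio of UMIs per 1000000 in members over the reference within each hashtag label, on a log scale with exact 95% intervals, for the 15 high genes and the 10 low genes. Open arrowheads at the left edge mark 0 UMIs in members, intervals are drawn no further than that edge, and dotted lines mark ratios of 0.5 and 2. Pla2g6 is high in KD alone. The 10 low genes, picked by their ratio over the same pools, lie below 1 in each pool.

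The 10 genes with the lowest upper bound were Agtr1a, Sv2c, Rasd1, Abtb2, Npsr1, Megf10, Fosl2, Gpc5, Fras1 and Gm30373. In each pool 10 of 10 were below 1, which adds no support, since they were picked by the ratio over the same pools. Members held 0 UMIs of Rasd1, 1 each of Abtb2 and Gm30373 and 2 of Megf10, which left the pools little room to differ. Agtr1a, an angiotensin II receptor, had 7 UMIs in members, 7.48 CPM, against 73.5 CPM in the reference, a ratio of 0.102 (0.0408 to 0.210). Sv2c, a protein of synaptic vesicles, had 7.13 CPM in KD members, 38.9 in Q153R members and 42.8 in Ctrl members, against 181, 225 and 195 CPM in reference nuclei of those labels, a ratio of 0.155 (0.103 to 0.222). Gpc5, a heparan sulfate proteoglycan of the cell surface, had 496 CPM in KD members, 456 in Q153R members and 311 in Ctrl members, against 1379.7, 1383 and 1287 CPM in reference nuclei of those labels, a ratio of 0.304 (0.274 to 0.337). In each of these genes the pools of members lay below those of the reference. Rasd1, a small GTPase induced by glucocorticoids, had 0 UMIs in members and 222 in the reference, a ratio of 0 (0 to 0.261). With 3 UMIs over the members taken as a floor it was 4.76-fold lower, a value that depends on that choice.

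Most reference UMIs of 8 of these 10 genes lay in the largest cluster, cluster 0, which held 414 reference nuclei (17.3%) and 1 member. The share was 79.4% for Sv2c, 74.3% for Rasd1, 72.5% for Megf10, 70.5% for Agtr1a and 55.4% for Gpc5. With that cluster left out of the reference the ratio was 0.661 for Sv2c, 0.599 for Gpc5, 0.303 for Agtr1a, 0.268 for Megf10, 0.244 for Fosl2, 0.129 for Gm30373 and 0.122 for Abtb2. Rasd1, with 0 UMIs in members, stays at 0 under any reference. Of its 222 reference UMIs 165 lay in that cluster, so the 4.76-fold value does not hold for the other reference nuclei. Fras1, the matrix partner of Frem1, had 51.2% of its reference UMIs in cluster 2 instead. It had 46.4 CPM in KD members, 3.54 in Q153R members and 29.5 in Ctrl members, against 135, 104 and 115 CPM in reference nuclei of those labels. Its ratio was 0.227 (0.147 to 0.337), and 0.205 without the largest cluster. Npsr1, the neuropeptide S receptor, had 4 UMIs in members and 536 in the reference, a ratio of 0.116 (0.0315 to 0.299).

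The gene lists below were drawn up for the pathways of the marker genes and for the PVH. Of 248 genes of all the lists compared between members and reference, 6 (2.42%) had a ratio of at least 2 and 18 (7.26%) of 0.5 or less. Of all genes compared, the shares were 0.354% and 2.06%. The lists were chosen with earlier results of these data known, so their higher shares are a description. Of 19 semaphorin ligands and receptors compared, 0 had a ratio of at least 2 and 1, the ligand gene Sema3c, had 0.5 or less at 0.426 (0.277 to 0.628). The median log2 ratio of the list was -0.09. The neuropilins, the binding subunits for class 3 semaphorins, stood at 164 CPM in members and 93.7 CPM in the reference for Nrp1 (1.75, 1.48 to 2.07), and at 168 CPM in members and 110.3 CPM in the reference for Nrp2 (1.52, 1.28 to 1.79). Sema3a, another class 3 ligand, was at 1.79 (1.26 to 2.47). Nrp1, Nrp2 and Sema3a were named after their values were seen and are short of the fold. Of the 19 genes 9 were above 1. Of 21 genes of netrin, slit and ephrin guidance 0 were past the fold.

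Of 12 dopamine signalling genes compared, 0 were past the fold and 2 were above 1, with a median log2 ratio of -0.25. Gnal, a G protein subunit that stimulates adenylyl cyclase, was at 1.24 (1.02 to 1.501) and was named after its value was seen. Drd2, the relative of Drd3, was below the 200 UMIs with 15 UMIs in 9 members, 16.0 CPM, against 7.35 CPM in the reference. Drd1 had 0 UMIs in members and 25 in the reference, and Th, the first enzyme of dopamine synthesis, 0 and 32. Of 6 genes of the Fras1 complex and basement membrane, 1, Fras1, was past the fold and 0 were above 1. The third partner, Frem2, had 0 UMIs in members and 12 in the reference. Of 6 NADPH oxidase and redox genes, 1, Nox4, was past the fold.

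Of 14 neuropeptide and secreted ligand genes, 0 had a ratio of at least 2 and 4 had 0.5 or less, around a median log2 ratio of -0.26. The low ones were Crh, corticotropin-releasing hormone (0.177, 0.0648 to 0.389), Tac1, the precursor of substance P (0.431, 0.205 to 0.802), Angpt1, an angiopoietin (0.471, 0.367 to 0.595), and Vgf, a granule protein (0.488, 0.317 to 0.720). Of the reference UMIs of Crh 70.3% lay in the largest cluster. Adcyap1, which encodes PACAP, was at 1.68 (1.24 to 2.25), and Trh, thyrotropin-releasing hormone, at 1.36 (1.09 to 1.68). Both were named after their values were seen, and 6 of the 14 genes were above 1.

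Of 26 receptors with roles in energy balance and hormone response, 1 (Galr1) had a ratio of at least 2 and 6 had 0.5 or less, around a median log2 ratio of -0.14. The low ones were Qrfpr (0.105), Sstr2 (0.137), Adra1b (0.367), Calcrl (0.446), Calcr (0.459) and Prlr (0.488). Calcr, the calcitonin receptor, stood at 59.8 CPM in members and 130.2 CPM in the reference, and Prlr, the prolactin receptor, at 60.9 CPM in members and 125 CPM in the reference. Mc4r, the melanocortin receptor through which the PVH restrains feeding, had 2 UMIs in members and 50 in the reference, and Lepr, the leptin receptor, 4 and 111, too few to compare.

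Of 35 transcription factors compared, 3 had a ratio of at least 2 and 2 had 0.5 or less, around a median of -0.03. Besides Nfib these were Zic4, a zinc finger factor, at 39.5 CPM in members and 16.6 CPM in the reference (2.38, 1.64 to 3.37), and Lhx5, a LIM homeodomain factor, at 32.0 CPM in members and 16.0 CPM in the reference (2.003, 1.32 to 2.94). Lhx5 lies at the limit of 2, and 1 KD nucleus held 6 of its 30 UMIs in members. Its place past the fold thus rests on few UMIs. Pou3f2, a POU factor of neuroendocrine neurons, was at 0.413 (0.224 to 0.700) and Ebf2 at 0.492 (0.332 to 0.703). Otp was at 0.970 (0.761 to 1.22), and Sim1, on which both classes were chosen, stood at 529.7 CPM in members and 588 CPM in the reference.

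Of 7 genes induced by neuronal activity, 0 were above 1 and 4 had a ratio of 0.5 or less, around a median log2 ratio of -1.74. These were Btg2 (0.177, 0.0708 to 0.366), Fos (0.227, 0.0463 to 0.671), Junb (0.270, 0.108 to 0.560) and Nr4a1 (0.299, 0.154 to 0.526). The largest cluster held 66.9% of the reference UMIs of Btg2, 59.2% of Fos, 55.4% of Junb and 55.9% of Nr4a1, and its part in the low ratios of the group was not tested. Of 49 ion channel genes 1, Kcnq5, was past the fold, and of 34 subunits of glutamate and GABA receptors 0 were.

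Slc17a6, the vesicular glutamate transporter of the hypothalamus, stood at 138 CPM in members and 154 CPM in the reference and was found in 72 members, while Slc17a7 and Slc17a8 had 0 UMIs in members. The 6 pan-neuronal markers summed to 9647 CPM in members and 9028 CPM in the reference, and the 7 GABAergic markers, 3 of them limited by the rule, to 110.0 and 115 CPM. Of the 5 markers of oligodendrocyte precursors, Pdgfra, Cspg4, Olig1 and Olig2 had 0 UMIs in members, and the list summed to 21.4 CPM in members and 25.5 CPM in the reference. The microglial genes C1qa, C1qb and Csf1r were at 0, and the 6 markers summed to 75.8 and 72.1 CPM. The 6 astrocyte markers, with Gja1 and Gfap at 0 in members, summed to 69.4 CPM in members and 47.1 CPM in the reference, and the part of that difference in any result was not tested. Oligodendrocyte markers summed to 48.1 and 50.6 CPM, endothelial and mural markers to 10.7 and 7.83 CPM, and ependymal and tanycyte markers to 4.27 and 8.38 CPM.

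Otp, the altered gene, lies at chr13:94875602-94885130 on the plus strand in GRCm38. It had 96.3 CPM in KD members, 103 in Q153R members and 58.9 in Ctrl members, from 27, 29 and 22 UMIs, against 87.9, 115 and 57.5 CPM in reference nuclei of those labels. Ctrl was lowest in both classes. In members the ratio was 1.64 (0.897 to 3.01) for KD over Ctrl and 1.74 (0.967 to 3.18) for Q153R over Ctrl, and in the reference 1.53 (1.31 to 1.78) and 1.9997 (1.73 to 2.31). In the 36 members with several selecting genes the values were 0.867 and 0.886. They rest on 6 UMIs in KD, 5 in Q153R and 9 in Ctrl, too few to give a direction. UMIs were summed over the whole gene and the sources used here do not give the floxed exons, so this level does not check the deletion.

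Wdr41, which begins 91.2 kb beyond the end of Otp at chr13:94976344-95023314, was high in KD nuclei. It had 321 CPM in KD members, 84.9 in Q153R members and 53.5 in Ctrl members, from 90, 24 and 20 UMIs, and was found in 37 of 38 members in KD. The KD interval lay apart from those of the other pools. The ratio was 5.996 (3.66 to 10.3) for KD over Ctrl and 1.59 (0.840 to 3.03) for Q153R over Ctrl. The reference had 284 CPM in KD, 79.9 in Q153R and 51.8 in Ctrl, with ratios of 5.49 (4.81 to 6.28) and 1.54 (1.32 to 1.81). In members of cluster 15 the ratio was 24.0 for KD and 11.5 for Q153R, over 1 Ctrl UMI, and in members outside it 5.06 and 0.847. For Q153R these rest on 14 UMIs in cluster 15 and on 10, against 19 in Ctrl, outside it. The value for Q153R thus depends on which members are summed, at small counts.

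**Figure D5:**
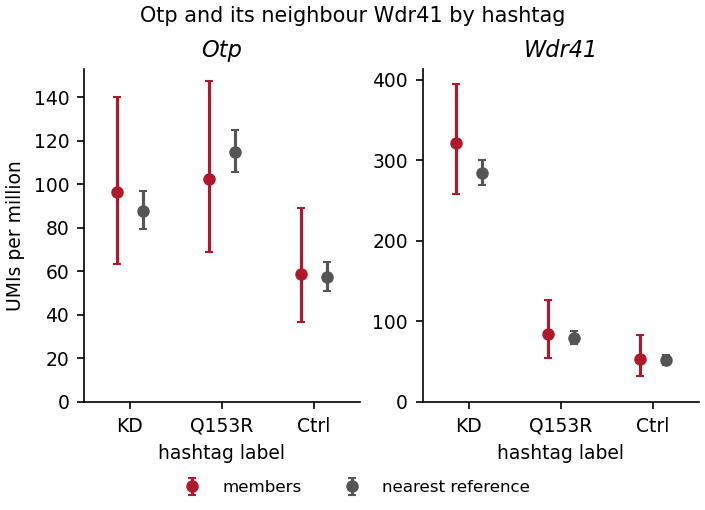
Summed UMIs per 1000000 with exact Poisson 95% intervals for Otp and Wdr41 in members and reference nuclei of each hashtag label. Otp is lowest in Ctrl, at 58.9 in members and 57.5 in the reference, and Wdr41 is highest in KD, at 321 and 284.

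For KD over Ctrl, 2553 genes had at least 50 UMIs over both pools of members. Of these, 26 had a ratio of at least 2 (1.02%) and 47 of 0.5 or less (1.84%), around a median log2 ratio of -0.02. After Wdr41 the high genes with the highest lower bound were Kirrel3, Kcnip4, Gm28928, Kctd8 and Fgf1. Kirrel3, an adhesion protein of synapses, had 999 CPM in KD members and 426 CPM in Ctrl members (2.346, 1.92 to 2.87), against 1.16 for the same ratio in the reference. Kcnip4, a partner of A-type potassium channels, had 5693 CPM in KD members and 2784 CPM in Ctrl members (2.04, 1.89 to 2.21). One nucleus held 23.7% of the Kcnip4 UMIs in KD members. Without that nucleus the ratio of KD over Ctrl was 1.61, while in members of cluster 15 it was 1.31. In members with 2 or 3 selecting genes the ratio was 1.24 for Kirrel3 and 1.09 for Kcnip4, both short of the fold. Fgf1, a growth factor, was at 2.89 (1.61 to 5.36), with 1.68 in members of cluster 15 and 5.93 among members with at least 3 selecting UMIs. Kctd8, an auxiliary subunit of the GABAB receptor, was at 2.44 (1.66 to 3.65), but at 0.544 among members with at least 3 selecting UMIs and 0.721 in cluster 15. Gm28928 was at 2.19 (1.72 to 2.80), at 1.39 without the nucleus that held most of its UMIs, and at 6.75 in nuclei with Xist and without Y-linked UMIs.

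The low genes for KD over Ctrl were Il1rapl2, Hdx, Pcmtd2, Ptges3, Gabra3 and Atp13a3. Il1rapl2, an X-linked gene of a synaptic membrane protein, had 175 CPM in KD members and 565 CPM in Ctrl members (0.309, 0.222 to 0.424), and 1 nucleus held 75.5% of the KD UMIs. In members of cluster 15 it was listed at 0 UMIs in KD, and at 3 or more selecting UMIs its ratio was 0.510. In the reference its ratio was 0.460 (0.425 to 0.496). Gabra3, an X-linked GABAA receptor subunit, had 64.2 CPM in KD members and 166 CPM in Ctrl members (0.387, 0.215 to 0.662), against 1.09 (0.973 to 1.21) in the reference, and its ratio was 0.626 at 3 or more selecting UMIs. Ptges3, a co-chaperone of the heat shock protein Hsp90, was at 0.333 (0.155 to 0.655), and at 0.700 in members with 2 or 3 selecting genes, and Hdx, an X-linked homeobox gene, at 0.283 (0.128 to 0.568). In nuclei with Xist and without Y-linked UMIs the ratio was 0.402 for Il1rapl2, 0.350 for Gabra3 and 0.298 for Hdx. Of the 12 genes named, Wdr41 and Il1rapl2 were past the fold in the reference too, and the difference between members and reference was not tested. Nox4, with fewer than 50 UMIs in these pools, was at 0.311 (0.115 to 0.722), and at 0.651 without the Ctrl nucleus that held 16 of its UMIs.

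For Q153R over Ctrl, 2614 genes could be compared. Of these, 29 had a ratio of at least 2 (1.11%) and 30 of 0.5 or less (1.15%), around a median log2 ratio of 0.03. The leading high genes were Eda, Elavl1, Wdr44, March3, Rerg and Nnat. Eda, the X-linked gene of the ligand ectodysplasin, had 272 CPM in Q153R members and 99.1 CPM in Ctrl members (2.75, 1.84 to 4.19), against 0.882 in the reference. Elavl1, an RNA-binding protein, had 138 CPM in Q153R members and 42.8 CPM in Ctrl members (3.22, 1.76 to 6.18), against 0.898 in the reference. Nnat, an imprinted gene of neurons, had 672 CPM in Q153R members and 348 CPM in Ctrl members (1.93, 1.54 to 2.43), but a ratio of 0.900 in members of cluster 15. Wdr44 was at 3.17 (1.69 to 6.24), the ubiquitin ligase gene March3 at 3.01 (1.69 to 5.57) and Rerg at 2.76 (1.63 to 4.82). In nuclei with Xist and without Y-linked UMIs, 47.9% of members in Q153R and 70% in Ctrl, the ratio was 5.09 for Eda, 2.04 for Elavl1 and 5.50 for Wdr44. In members with 1 selecting gene Eda was at 1.63, and in members with 2 or 3 it was at 11.2, Elavl1 at 8.77 and March3 at 1.33. The values with 2 or 3 genes rest on 35 UMIs in Q153R and 5 in Ctrl for Eda. They rest on 11 and 2 for Elavl1, and on 5 and 6 for March3. In members of cluster 15 Elavl1 was at 12.3 and March3 at 10.7, each over 1 Ctrl UMI, and Wdr44 at 1.78. Rerg was at 1.62 at 3 or more selecting UMIs.

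The leading low genes for Q153R over Ctrl were Fam19a1, Cdh12, Erp44, Cdh20, Hs3st5 and Elmo1. Cdh12 and Cdh20 encode cadherins, which hold cells together. Cdh12 had 184 CPM in Q153R members and 449.8 CPM in Ctrl members (0.409, 0.294 to 0.561), and Cdh20 had 49.5 and 147 CPM (0.336, 0.173 to 0.613). Fam19a1, a secreted protein of the brain, had 131 CPM in Q153R members and 380.2 CPM in Ctrl members (0.344, 0.233 to 0.497). Hs3st5, a heparan sulfate sulfotransferase, was at 0.366 (0.204 to 0.625), and Elmo1, an activator of Rac, at 0.380 (0.222 to 0.625). In members of cluster 15 these genes had few UMIs. Cdh12 and Fam19a1 had 1 UMI each in Q153R and 1 each in Ctrl there, Cdh20 had 3 and 3, and Erp44 5 and 5, so that the ratio was 0.820 for 4 of the 6 genes and not past the fold. In members with 2 or 3 selecting genes Cdh12, Fam19a1 and Hs3st5 had 0 UMIs in Q153R and Erp44 was at 0.911. In nuclei with Xist and without Y-linked UMIs Cdh20 was at 0.623 and Elmo1 at 0.562. Of the 12 genes named 0 were past the fold in the reference, where the ratios ran from 0.882 to 1.42 for the high genes and from 0.813 to 1.11 for the low ones. That difference was not tested either. Nox4, below the 50 UMIs, was at 0.793 (0.416 to 1.47) for Q153R over Ctrl, and at 1.66 without the Ctrl nucleus that held 16 of its UMIs. Both comparisons share the Ctrl nuclei.

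Of 148 genes of the lists compared for KD over Ctrl, 3 (2.03%) had a ratio of at least 2 and 4 (2.70%) of 0.5 or less, against 1.02% and 1.84% of all genes compared. They were Satb1 (2.03, 1.14 to 3.70), Nr3c1, the glucocorticoid receptor (0.408, 0.212 to 0.740), the ephrin receptor gene Epha3 (0.403, 0.199 to 0.763) and the sodium channel gene Scn9a (0.4997, 0.342 to 0.718), besides Gabra3, Kcnip4 and Wdr41. Of 146 compared for Q153R over Ctrl, 2 (1.37%) had a ratio of at least 2 and 4 (2.74%) of 0.5 or less, against 1.11% and 1.15% of all genes. These were Homer1 (2.23, 1.38 to 3.67), Calb1 (2.06, 1.22 to 3.55), Sema6d (0.474, 0.308 to 0.713), Nfib (0.446, 0.275 to 0.704) and the potassium channel genes Kcnh5 (0.441, 0.239 to 0.776) and Kcnh8 (0.441, 0.216 to 0.843). Nfib was lower in Q153R in the reference too, at 55.6 CPM from 266 UMIs against 97.9 CPM from 514 UMIs in Ctrl. Its low ratio is thus not particular to members. For the other genes first named in this paragraph no ratio in the reference is given. Of 8 receptors of energy balance compared in each case, 0 were past the fold in KD and 0 in Q153R.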

How the data were processed

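Single-nucleus RNA sequencing was done on GFP-sorted nuclei. Raw UMI counts were deposited for 31053 genes and 3 hashtags (per the file headers). They were made with Cell Ranger on mm10, version 6.0.0 per the submitters' processing notes and 7.0.0 by the matrix header. The annotation and the settings for introns and strand were not given in the sources used here. Barcodes with at least 500 genes and 1 hashtag (Ctrl at least 105, KD 61, Q153R 37 UMIs) were kept. Barcodes with several hashtags were removed as doublets, and no caller was run for doublets within a pool.

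UMIs were summed over nuclei as counts per 1000000, with exact Poisson, binomial and Clopper-Pearson 95% intervals, after the calculation was checked on simulated counts. Genes needed 200 UMIs over members and reference, or 50 over 2 pools, and ratios of at least 2 or at most 0.5 are called past the fold. Named genes are the 15 with the highest lower and the 10 with the lowest upper bound, 6 of each between pools, and list genes past the fold. Nrp1, Nrp2, Sema3a, Gnal, Drd1, Drd2, Th, Frem2, Adcyap1 and Trh were named after their values were seen. Neighbours and Leiden clusters came from log counts per 10000, 2000 variable genes, 30 components, 15 neighbours and resolution 1, with scikit-learn 1.9.0 and leidenalg 0.10.2. Python 3.11.15, numpy 2.4.6, scipy 1.17.1 and pandas 2.3.3 were used. Coordinates are from GENCODE on GRCm38, which held 31011 of 31053 gene IDs, and sequences from RefSeq on GRCm38.p6, which was matched for 4 of 4 genes shown. The members and lists were chosen with earlier results of these data known. Alternatives changed the rule's limits, hashtag thresholds, minimum UMIs, scaling, reference, clustering and the pools or nuclei used.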

Additional observations from a re-analysis of the deposited data

How the results depend on the processing

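The number of members, 136, was 63 at 3 UMIs or more, 86 with Sema3d and Drd3 alone, 29 after thinning and 86 with Xist nuclei alone. The odds ratios of the pools moved by less than their intervals. Of genes past the fold in members over the reference, 30 high and 175 low, there were 70 and 496 at 3 UMIs or more, 217 and 701 with a minimum of 50 UMIs, 5 and 31 with 1000, 71 and 422 against all other nuclei, and 17 and 107 against deeper reference nuclei. Without the Q153R pool 18 were high, and with Sema3d and Drd3 alone 327 were low. The Nox4 ratio was 5.35 at 3 UMIs or more and 2.52 without Ctrl, and that of Pla2g6 0.759 without KD.

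The next alternatives were chosen after seeing the data. Members with 2 or 3 genes gave 195 high and 806 low genes, those with 1 gene 46 high genes, those in cluster 15 255 high and 889 low genes, and a reference without the largest cluster 18 and 101. Nox4 was at 8.60, 1.92, 8.40 and 1.93 with 2 or 3 genes, 1 gene, inside and outside cluster 15, and at 2.64 without its top nucleus, which leaves 4.71 with 2 or 3 genes and 4.596 in cluster 15. Pla2g6 was at 0.599 with 2 or 3 genes, 0.877 in cluster 15 and 0.721 without its top nucleus. In cluster 15, Gm20754 was at 0.831, 4930509J09Rik at 0.726, 6530403H02Rik at 0 and Galr1 at 0.943, and outside it Ust at 0.985.

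For KD over Ctrl the 26 high and 47 low genes were 183 and 294 with a minimum of 20 UMIs, 4 and 1 with 200, 11 and 15 with 2 or 3 genes, and 15 and 16 in cluster 15, and 31 were low in Xist nuclei. For Q153R over Ctrl the 29 high and 30 low genes were 194 and 209 with 20 UMIs, 0 and 3 with 200, and 16 and 7 in cluster 15. There 15 were high at 3 UMIs or more, 14 were high with 2 or 3 genes, and 49 were low outside cluster 15. Otp for KD was at 0.829 with Sema3d and Drd3 alone and 0.867 with 2 or 3 genes, and for Q153R at 0.886 with 2 or 3 genes. With 2 or 3 genes this rests on 6 UMIs in KD, 5 in Q153R and 9 in Ctrl. Wdr41 with 2 or 3 genes and in cluster 15 was at 20.2 and 24.0 for KD and 5.58 and 11.5 for Q153R, which was at 0.847 outside cluster 15. The Ctrl nuclei held 2 Wdr41 UMIs with 2 or 3 genes and 1 in cluster 15. Kctd8 for KD was at 0.544 at 3 UMIs or more and 0.721 in cluster 15, and Nnat for Q153R at 0.900 there. At Leiden resolution 0.5 the leading cluster held 42.6% of members. Fewer genes or nuclei enter under most of these settings, and the cause of each shift was not tested. No paired analysis was possible because each genotype is 1 pool without replicates, and small UMI numbers in 38 to 50 members per pool limit the comparisons.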
